A study of Rattus norvegicus with 6 samples.

Results

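The proteasome genes of rat pancreatic islets were compared between animals aged 12 months and animals aged 3 months. They were taken by symbol, as every gene named Psma, Psmb, Psmc, Psmd, Psme, Psmf or Psmg followed by a digit and reached through a RefSeq mRNA accession on the array. The rule found 45 genes among the 13888 genes with a probe, and all 45 were among the 11189 genes tested. Of these, 43 encode subunits, activators, the inhibitor or assembly chaperones of the proteasome. *Psmc3ip*, a factor of meiotic recombination, and *Psme3ip1*, which encodes an interaction partner of the activator Psme3, matched the symbol rule without such a role. The RefSeq table holds 102 symbols of this form, of which 48 are pseudogenes and 9 are protein-coding genes with no matched probe. Those 9 were *Psmb11*, *Psmb3l1*, *Psmb3l2*, *Psmb6l1*, *Psmd11*, *Psme4*, *Psmg1*, *Psmg3* and *Psmg4l1*, and they were not analysed here. Binding of pseudogene transcripts to the probes was not tested.

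The proteasome is the barrel-shaped protease that degrades proteins tagged with ubiquitin. Its core particle stacks outer rings of alpha subunits, which gate the entrance, around inner rings of beta subunits, a few of which carry the proteolytic sites. A regulatory cap, built of a base of ATPases and a lid, recognises, unfolds and feeds in the substrate, and other activators can take its place. Cytokines such as interferon-gamma exchange the catalytic beta subunits for inducible ones, forming the immunoproteasome. In beta cells, which make insulin in large amounts, the proteasome removes misfolded proteins returned from the endoplasmic reticulum.

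RNA came from islets of male Wistar rats, isolated by collagenase digestion and extracted with the miRNeasy kit, and each age was represented by 3 arrays labelled with a single dye (Cy3). The labels name no treatment or genetic change, and age is the only difference they give. The series description counts 3 rats of each age, and the p-values describe the spread between their arrays. All 9 endocrine marker genes, including *Ins1*, *Ins2* and *Gcg*, were well above background on every array. Between 73.1% and 77.5% of probes were well above background on the 3-month arrays, against 59.5% to 64.2% on the 12-month arrays, and each age was scanned separately, so that age and scan cannot be told apart. In bulk islet RNA, fewer cells of a type and less RNA per cell cannot be told apart either.

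Most of the 45 members were not called as different between the ages, and with 3 arrays of each age this does not show them unchanged. With an adjusted p below 0.05, 1 member rose (*Psmb2*, a structural subunit of the beta ring) and 1 detected on every array fell (*Psmd9*, an assembly chaperone). *Psma8*, an alpha subunit best known from the testis, was also lower, but it was tested only through its detection on all 3 arrays at 3 months and was above background on 1 of 3 at 12 months. These 3 of 45 members were 6.67% of the list, and 7.86% of all tested genes were called. At the fold threshold, a change of more than 2-fold whose unadjusted p was below 0.05, 6 members were higher at 12 months, 13.3% of the list against 9.8% of all tested genes. Another 2 members, *Psmd9* and *Psma8*, were lower at that threshold, 4.44% of the list against 9.64% of all tested genes. When every array was instead shifted to a common 75th percentile, 4 members were higher and 7 lower at that threshold. That shift also moved the median difference of all tested genes, from -0.13 to -0.34. The share of all tested genes at the fold threshold is not given for it. The 12-month values lay entirely above the 3-month values for 11 members (24.4%), and this was so for 17% of all tested genes. They lay entirely below for 10 members (22.2%), against 22.1% of all tested genes, and the ages overlapped for the other 24.

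The fitted differences of the members ranged from -1.39 to 2.96 log2 units, 12 months minus 3 months, with a median of -0.06. The median over all tested genes was -0.13. The middle of the list, from the lower to the upper quartile, ran from -0.44 to 0.44, whereas that of all tested genes ran from -0.63 to 0.45. A difference within 0.5 log2 units of 0 was found for 57.8% of the members and for 45.3% of all tested genes. The arrays of one age also lay closer together for the members, with a median pooled SD of 0.24 log2 units against 0.41 over all tested genes. However, 29 of the 45 members were in the brightest 20% of tested genes by mean signal. Among these bright genes the median difference was -0.07, the share within 0.5 log2 units was 65.2% and the median pooled SD was 0.24. The values of the members above are for all 45, and the 29 bright ones were not compared with these genes separately. By sign, 22 members were positive and 23 negative. The 75th-percentile shift, which moved the median of all tested genes to -0.34, turned this into 16 positive and 29 negative, and the members' median minus that of all genes was then 0.05 log2 units, against 0.07 with quantile normalisation.

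**Figure D1:**
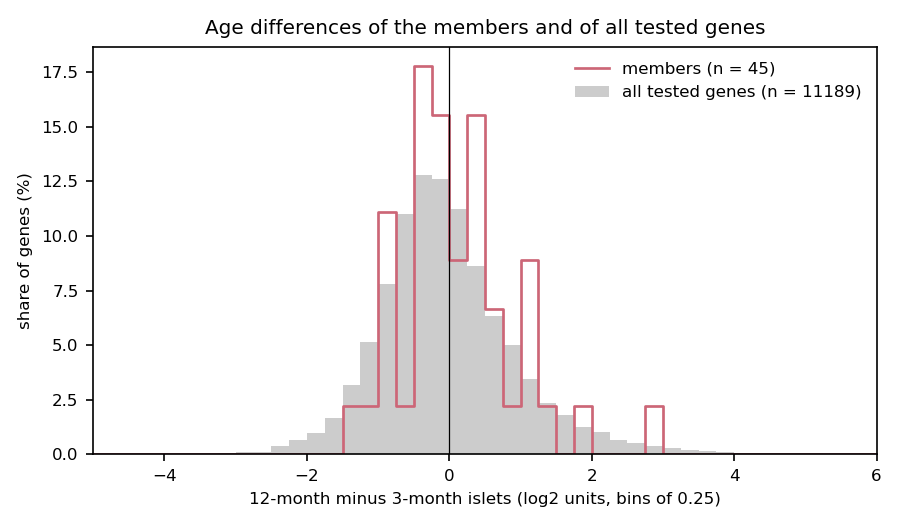
Share of genes (vertical axis, %) in bins of the age difference (horizontal axis, 12 months minus 3 months, log2 units, bins of 0.25), for all 11189 tested genes (grey bars) and the 45 members (red line). Of the members, 26 lie within 0.5 log2 units of 0, and *Psmb2* stands alone at the right, at 2.96.

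The promoters of the members are shown for the genes on which the comparison turns, because proteasome genes are textbook targets of the transcription factor Nfe2l1, which binds antioxidant response elements. RefSeq promoter windows of assembly GRCr8, from 250 bases before to 50 bases after the start of each gene, were matched for 41 of the 45 members, and *Psma7*, *Psmd12*, *Psmd14* and *Psmd6* had no entry. The core of that element was searched on both strands as TGACNNNGC, and its match is in capitals below. *Psmb2* rose with age, *Psmd9* fell, and *Psmb5* and *Psmb6* encode catalytic subunits.
*Psmb2*, chr5:144254974-144255014, plus strand: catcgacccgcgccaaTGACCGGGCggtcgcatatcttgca
*Psmd9*, chr12:39018317-39018357, minus strand: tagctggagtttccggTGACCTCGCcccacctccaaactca
*Psmb5*, chr15:32047415-32047455, minus strand: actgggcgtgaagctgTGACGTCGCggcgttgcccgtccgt
*Psmb6*, chr10:55737848-55737887, plus strand: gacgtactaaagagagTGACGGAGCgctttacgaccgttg
In these stretches the match began 68 bases before the start of *Psmb2*, 77 before that of *Psmd9*, 60 before that of *Psmb5* and 24 before that of *Psmb6*. In *Psmb2* it shared bases with a CCAAT that began 72 bases before the start and with a GGGCGG that began 63 bases before it. A TGACNNNGC was found in 7 of the 41 member promoters (17.1%), in 14.5% of the 9585 promoters of tested genes and in 12.1% of all 33469 promoters. The 7 members that hold it ranged in age difference from -1.13 to 2.96 log2 units, 3 of them positive and 4 negative. Besides the genes shown, they are *Psma3*, *Psmd1* and *Psmd3*. The catalytic *Psmb7* and the called member *Psma8* had no match, so only holders of the match are shown above. A related form, TGAGNNNGC, was found in 10 member promoters (24.4%), in 17.2% of all promoters and in 18.8% of those of tested genes. CCAAT was present in 22 (53.7%) against 37.5% of all promoters and 38.4% of those of tested genes. GGGCGG was present in 29 (70.7%) against 33.1% of all promoters and 54.3% of those of tested genes. Each match is a run of letters and not a measured binding site.

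**Figure D2:**
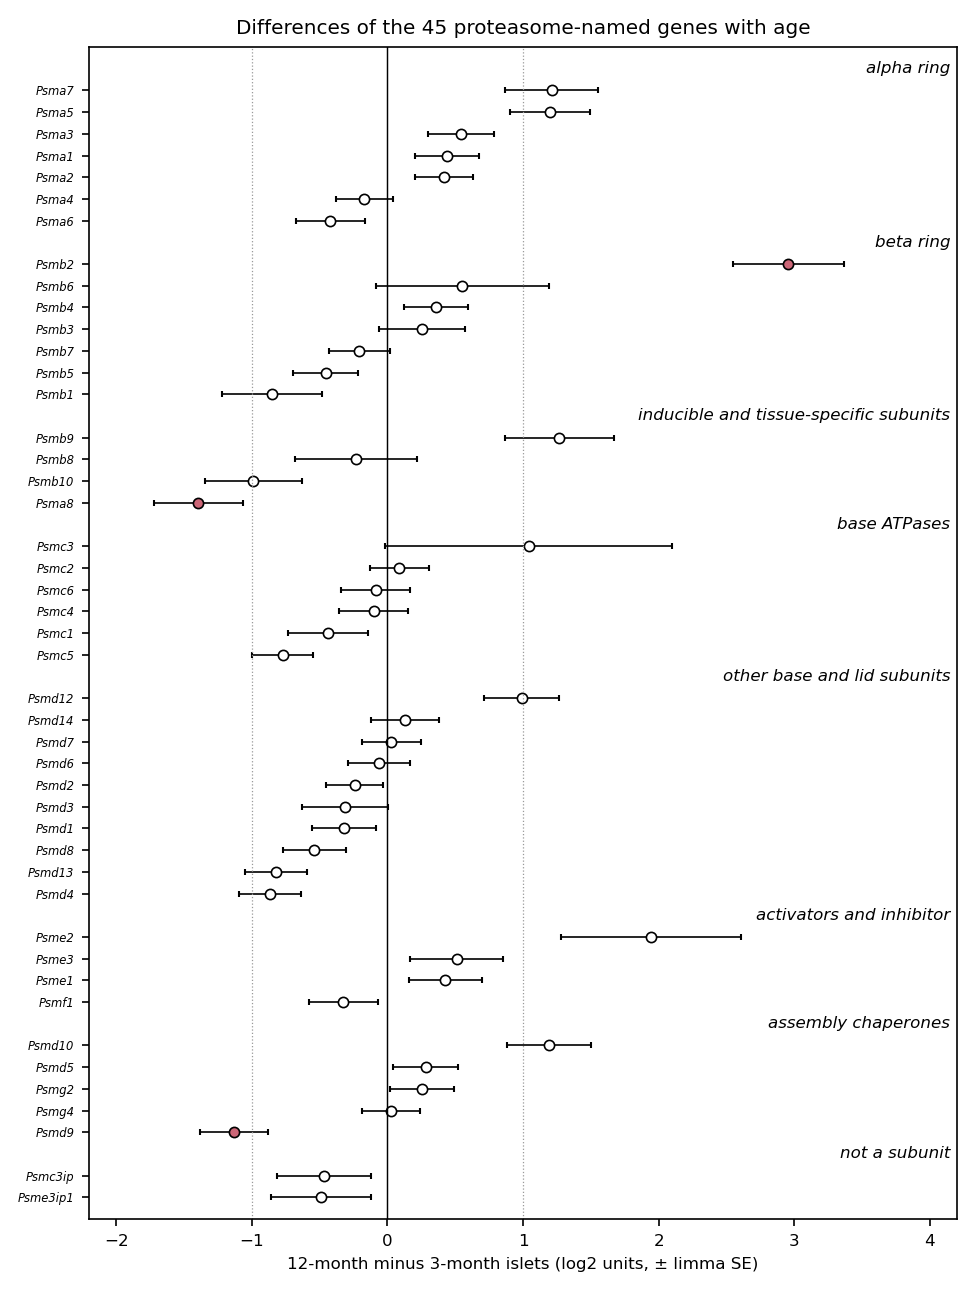
Age difference of each of the 45 genes (horizontal axis, 12 months minus 3 months, log2 units; bars, limma standard error), grouped by role, with dotted lines at a 2-fold difference. Filled points passed an adjusted p of 0.05: *Psmb2* to the right, *Psmd9* and, on a probe detected on 1 of 3 arrays at 12 months, *Psma8* to the left.

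The alpha ring genes lay mostly to the positive side. Of the 7, *Psma1* to *Psma7*, 5 were positive and 2 negative under every scaling tried, with a median of 0.44 log2 units that became 0.07 with the 75th-percentile shift. None passed the adjusted threshold in the main fit. The 12-month values lay above all 3-month values for 5 of the 7 (*Psma1*, *Psma2*, *Psma3*, *Psma5* and *Psma7*), where 17% of all tested genes did so, and below them for *Psma4*. *Psma5* and *Psma7* had the largest differences of the ring, and both exceeded 2-fold. The log2 signal of *Psma5* was 12.16, 12.75 and 12.02 on the 3-month arrays and 13.76, 13.20 and 13.58 on the 12-month arrays. The ages did not overlap, and the difference was 1.20 ± 0.30 log2 units (SE, n = 3 arrays per age), with an adjusted p of 0.0543 in the limma fit. *Psma5* passed the adjusted threshold under 7 of 19 alternative settings. *Psma7* read 12.29, 12.37 and 11.81 at 3 months and 13.50, 12.77 and 13.82 at 12 months. Its difference was 1.21 ± 0.34, again without overlap and with an adjusted p of 0.0719, and it passed under 3 of the 19 alternatives. The remaining members of the ring ranged from -0.42 for *Psma6* to 0.54 for *Psma3*.

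*Psmb2*, a beta-ring subunit without a proteolytic site of its own, had the largest age difference of all members. Its log2 signal was 9.20, 8.76 and 7.80 on the 3-month arrays and 11.50, 11.21 and 11.93 on the 12-month arrays. Every 12-month array exceeded every 3-month array by more than 2 log2 units. The difference of 2.96 ± 0.41 (SE, 95% confidence interval 1.98 to 3.93) corresponds to 7.76-fold, with an adjusted p of 0.0133. The difference lay between 2.37 and 3.26 under the 19 alternatives, and it remained past the adjusted threshold under 12 of them. The call was lost without the first 12-month array (adjusted p = 0.0604) and without the third (adjusted p = 0.0531), and the adjusted p ranged from 0.00297 to 0.284 over all alternatives.

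The other beta-ring genes did not move with *Psmb2*. The ring had 4 positive and 3 negative members, or 2 and 5 with the 75th-percentile shift, and after *Psmb2* the largest difference was that of *Psmb1*, also non-catalytic. *Psmb1* read 14.46, 14.04 and 13.43 at 3 months and 13.16, 12.66 and 13.56 at 12 months. The ages overlapped at the third array of each, and the difference of -0.85 ± 0.37 had an adjusted p of 0.162. *Psmb3* and *Psmb4* differed by 0.25 and 0.36, and both turned slightly negative with the 75th-percentile shift.

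None of the standard catalytic subunits passed a threshold. *Psmb5*, which carries the chymotrypsin-like site, read 14.74, 14.49 and 14.89 at 3 months and 14.20, 14.08 and 14.47 at 12 months. All 12-month values were the lower ones, by a narrow margin, and the difference was -0.46 ± 0.24 with a 95% confidence interval from -1.03 to 0.12, or -0.81 (adjusted p = 0.0792) with the 75th-percentile shift. *Psmb6*, the caspase-like subunit, read 12.02, 11.33 and 10.09 at 3 months and 12.09, 10.62 and 12.39 at 12 months. Its values spread over more than 1 log2 unit within each age, and the interval of the difference, -0.96 to 2.07, left changes of either sign possible. *Psmb7*, the trypsin-like subunit, read 14.39, 14.31 and 14.56 at 3 months and 14.32, 14.30 and 14.01 at 12 months. The arrays overlapped, and the difference was -0.21 ± 0.23, with an interval from -0.75 to 0.33, or -0.58 with the shift.

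The inducible counterparts of these subunits went in different directions. *Psmb9*, which replaces *Psmb6* in the immunoproteasome, read 8.65, 8.09 and 8.07 at 3 months and 10.14, 8.76 and 9.71 at 12 months. Every 12-month array was the higher, although the second exceeded the top 3-month array only slightly, and the difference was 1.27 ± 0.40 (2.41-fold, adjusted p = 0.0895). *Psmb10*, which replaces *Psmb7*, read 14.77, 14.94 and 14.36 at 3 months and 14.11, 13.03 and 13.96 at 12 months. Here every 12-month array was the lower, and the difference was -0.99 ± 0.36 (adjusted p = 0.115), or -0.65 without the second 12-month array. *Psmb8*, which replaces *Psmb5*, read 12.66, 11.42 and 12.54 at 3 months and 12.63, 11.54 and 11.75 at 12 months. Both ages reached the top and the bottom of nearly the same range, with the third array high at 3 months and low at 12 months. The difference was -0.23 ± 0.45, with an interval from -1.29 to 0.83.

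*Psma8*, the alpha subunit of the spermatoproteasome of testis, was lower at 12 months on a probe near background. It read 6.20, 6.35 and 5.76 on the 3-month arrays and 5.12, 4.19 and 4.82 on the 12-month arrays, without overlap. The probe was well above background on all 3 arrays at 3 months and on 1 of 3 at 12 months, the only member not detected on all 6 arrays, so that 2 of its 3 readings at 12 months bound the level only from above. Negative control spots read 1.67 to 2.24 scanner units on the 3-month arrays and 8.47 to 11.6 on the 12-month arrays. The difference was -1.39 ± 0.32 (adjusted p = 0.0481), and with normexp background correction it was -0.49 (adjusted p = 0.0818). Leaving out any single array lost the call, with adjusted p-values from 0.0625 to 0.134, and the range over all alternatives was 0.0259 to 0.324.

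Genes of the interferon response were examined beside the inducible subunits, since interferon regulatory factors drive the latter. A match to the interferon-stimulated response core, searched as GAAANNGAA on both strands, was found in 8 of the 41 member promoters (19.5%), in 7.80% of the promoters of tested genes and in 9.71% of all promoters. The members that hold it are *Psma4*, *Psmb2*, *Psmb3*, *Psmb8*, *Psmb10*, *Psmd7*, *Psme2* and *Psmg4*, whereas the inducible genes *Psmb9* and *Psme1* had no match. *Psmb10*, which was lower on all 12-month arrays, and *Psme2*, which was higher on all of them, are shown with the match in capitals below.
*Psmb10*, chr19:50743335-50743381, minus strand: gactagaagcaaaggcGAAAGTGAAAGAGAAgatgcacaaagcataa
*Psme2*, chr15:33052780-33052820, minus strand: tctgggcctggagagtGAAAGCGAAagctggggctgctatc
The capitals in *Psmb10* cover overlapping matches that began 73 and 67 bases before the start, and the match in *Psme2* began 53 bases before it. Of the 19 listed interferon-inducible genes, 18 had a tested probe, and none passed the adjusted threshold in limma, where 2 were higher (*Tap2* at 1.98 and *B2m* at 0.92, of the antigen presentation machinery) and 3 lower (*Irf8*, *Mx1* and *Usp18*) at an unadjusted p under 0.05. Over all tested genes, 13.6% were higher and 16.9% lower at that p. *Irf8* was well above background only at 3 months, so it entered the test through the age at which it was higher. These 5 were picked out after their values were seen. Over all 18 tested genes of this list the median difference was -0.31, and 6 were positive and 12 negative. The transcription factor *Irf1* differed by 0.13, and *Tap1*, the peptide transporter encoded next to *Psmb9*, by -0.15. For both the ages overlapped. Of the 15 immune marker genes 12 were tested and none passed the adjusted threshold, and none of these 12 separated the ages. The median difference of the 12 was -0.23, and 2 were positive and 10 negative. The log2 of the summed signal of all 15 was 15.19 to 16.59 at 3 months and 14.79 to 16.53 at 12 months. *Cd163* was well above background on 0 of 6 arrays.

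**Figure D3:**
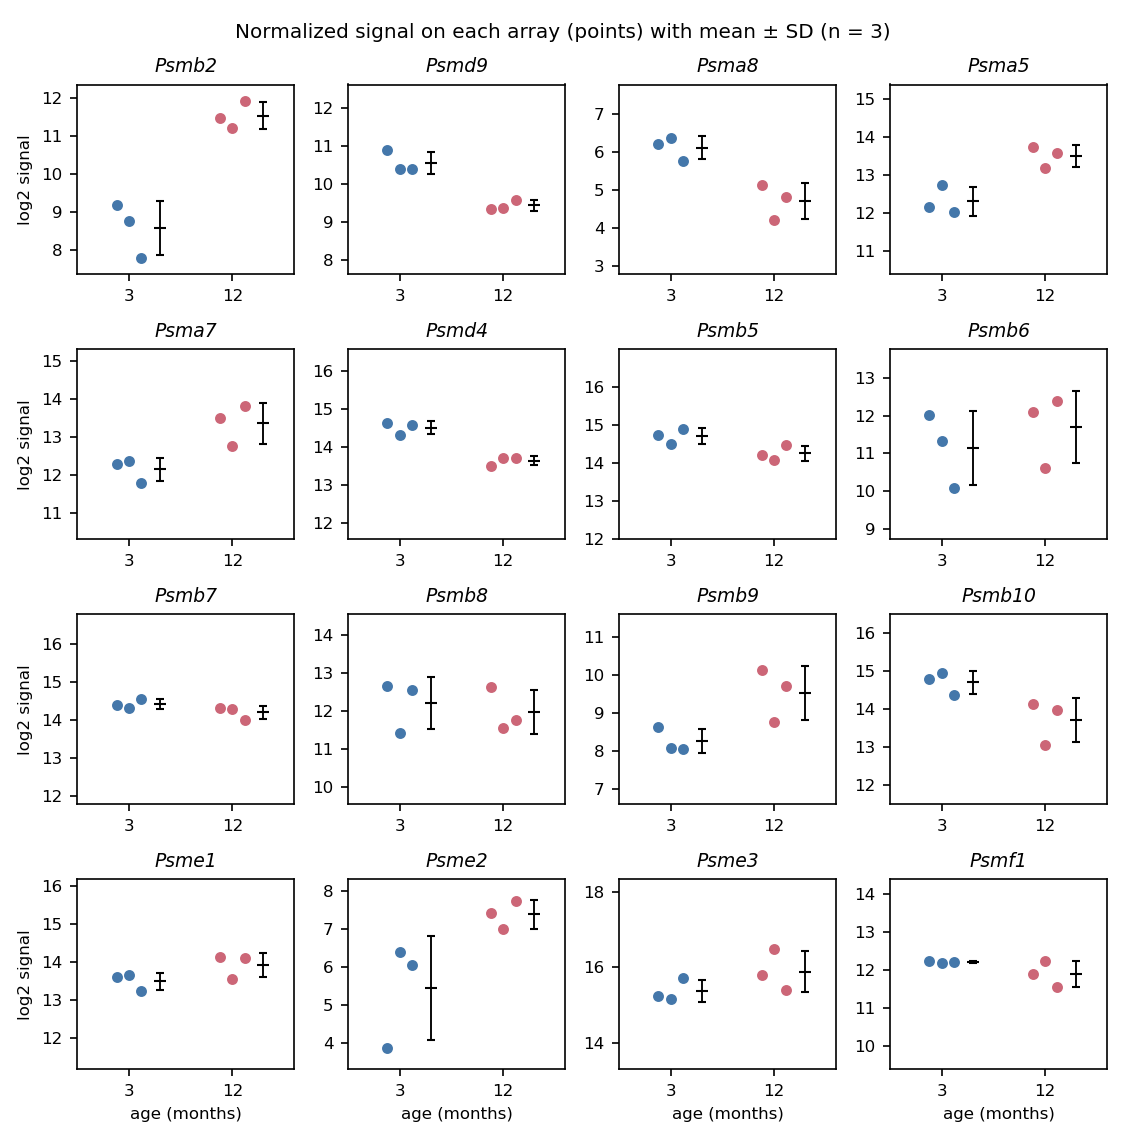
Log2 quantile-normalised signal (vertical axes, each spanning 5 log2 units) of 16 genes on the 3-month arrays (blue) and 12-month arrays (red), with the mean ± SD of 3 arrays in black. *Psmb2* separates the ages by the widest gap, *Psmb8* and *Psmb6* overlap, and *Psmb9* and *Psmb10* move to opposite sides.

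In the main fit no activator gene and not the inhibitor passed the adjusted threshold, and the ages separated only for *Psme2*. The median difference of these 4 genes was 0.47, and 0.10 with the 75th-percentile shift. *Psme1* and *Psme2* encode the partner subunits of the interferon-inducible activator ring. *Psme2* read 3.89, 6.40 and 6.08 on the 3-month arrays and 7.44, 7.00 and 7.76 on the 12-month arrays. The first 3-month array lay far below the other two, and all 12-month arrays were higher. Its difference was 1.94 ± 0.66 (3.85-fold, adjusted p = 0.103), with a 95% confidence interval from 0.37 to 3.51. It was 1.16 without the first 3-month array and 1.03 with normexp. *Psme1* read 13.59, 13.65 and 13.23 at 3 months and 14.11, 13.55 and 14.09 at 12 months, a difference of 0.43 ± 0.27 (0.12 with the 75th-percentile shift) in which the second 12-month array fell among the younger ones. *Psme3*, the nuclear activator, read 15.26, 15.17 and 15.72 at 3 months and 15.80, 16.47 and 15.40 at 12 months, a difference of 0.51 ± 0.34 with overlap (0.09 with the shift and 0.22 without the second 12-month array). *Psmf1*, the inhibitor, read 12.24, 12.19 and 12.23 at 3 months and 11.90, 12.23 and 11.55 at 12 months. Its 3-month arrays were nearly identical whereas those at 12 months spread, and the difference of -0.33 ± 0.26 had an interval from -0.93 to 0.28.

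In the regulatory cap no gene passed either threshold in the main fit. *Psmc5*, *Psmd4* and *Psmd13* passed both, as lower, with the 75th-percentile shift. They also passed the adjusted threshold with normexp, and with an intensity trend and robust variances, both of which keep quantile normalisation. *Psmd12* passed it, as higher, with that trend and without the second 12-month array. The base ATPases *Psmc1* to *Psmc6*, which unfold substrates, comprised 2 positive and 4 negative differences, or 1 and 5 with the 75th-percentile shift, between -0.77 for *Psmc5* and 1.04 for *Psmc3*. The value of *Psmc3* carries little weight, since it read 10.73, 10.23 and 7.91 at 3 months and 11.13, 8.68 and 12.19 at 12 months. That pooled SD of 1.66 log2 units was the largest of all members, and the interval of the difference ran from -1.47 to 3.56. *Psmc5* was the only ATPase with all 12-month arrays on one side, at 13.53 to 13.56 against 14.14 to 14.53, and its difference of -0.77 ± 0.23 had an adjusted p of 0.0763.

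The 10 other base and lid genes had a median of -0.28, with 3 positive and 7 negative, or 1 and 9 with the 75th-percentile shift. *Psmd4*, a ubiquitin receptor of the base, was the most negative. It read 14.63, 14.31 and 14.58 at 3 months and 13.51, 13.72 and 13.70 at 12 months, a clear gap between tight groups. Its difference was -0.87 ± 0.23 (adjusted p = 0.0620), and under 6 of the 19 alternatives it passed the adjusted threshold. The lid subunits *Psmd13* and *Psmd12* also separated the ages, in opposite directions, at -0.82 ± 0.23 and 0.99 ± 0.28 (adjusted p = 0.0694 for both). *Psmd8* and *Psmd2* were lower on all 12-month arrays too, by smaller amounts of -0.54 and -0.24. The deubiquitinating subunit *Psmd14*, at 0.13, overlapped between the ages, as did *Psmd1*, *Psmd3*, *Psmd6* and *Psmd7*.

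Among the assembly chaperones, 4 were positive and 1 negative, or 3 and 2 with normexp and with the 75th-percentile shift. The exception was *Psmd9*, a chaperone of the base that has also been described in beta cells as a coactivator of the insulin gene. It read 10.90, 10.40 and 10.38 at 3 months and 9.34, 9.37 and 9.58 at 12 months. The 12-month arrays all lay below, and the difference of -1.13 ± 0.25 (2.19-fold lower) had an adjusted p of 0.0434. That call was lost when any single array was left out, with adjusted p-values of 0.0630 to 0.156, while the difference stayed between -1.29 and -0.96 under all 19 alternatives, where adjusted p-values ran from 0.0100 to 0.287. *Psmd10*, known as gankyrin and a chaperone of the same base, was higher on every 12-month array. It read 7.19, 7.93 and 7.40 at 3 months and 8.88, 8.29 and 8.94 at 12 months, a difference of 1.19 ± 0.31 (adjusted p = 0.0607). *Psmd5*, *Psmg2* and *Psmg4*, the other chaperones, differed by 0.28, 0.26 and 0.03 and overlapped. *Psmc3ip* and *Psme3ip1*, the members outside these roles, differed by -0.47 and -0.49, also with overlap.

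**Figure D4:**
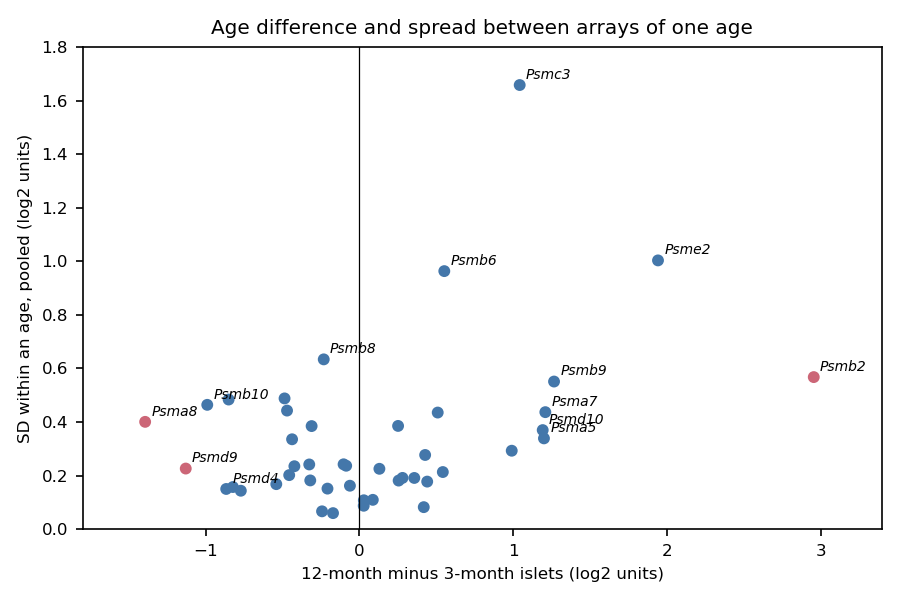
Age difference of each member (horizontal axis, log2 units) against the pooled SD of arrays of the same age (vertical axis, log2 units), with the members past the adjusted threshold in red. *Psmc3* has the largest spread, 1.66, followed by *Psme2* and *Psmb6*, while *Psmb2* combines the largest difference with an SD of 0.57.

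The scatter of the members was uneven across arrays. Measured against the mean of its own age, 7 members lay more than 0.5 log2 units low on the second 12-month array and 4 on the third 3-month array, against 0 to 2 on each of the others. *Psmb6* and *Psmc3* were low on both of these arrays. So were 3 of the 7 acinar markers, picked out after their values were seen. *Ctrb1* read 14.02 and 14.39 on these arrays and 16.61 to 17.91 on the others, and *Cel* and *Cpa1* were likewise lowest there. The part of acinar RNA in the scatter was not tested. Without the second 12-month array, 6 members passed the adjusted threshold, namely *Psma5*, *Psma7*, *Psmb2*, *Psmb9*, *Psmd10* and *Psmd12*, all of them higher at 12 months. Calls over all 11189 tested genes rose as well, to 1141 in that fit from 879 in the main fit.

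Genes that act around the proteasome showed large differences in only a few members. Of the 43 accessory genes listed, 33 had a tested probe. The median of these was 0.20, and 2 of 33 rose at the adjusted threshold while none fell in the limma fit, where 7.86% of all tested genes were called. At an unadjusted p under 0.05, 5 were higher and 0 lower, against 13.6% and 16.9% of all tested genes. *Uba6*, an enzyme that activates ubiquitin, read 5.89, 6.04 and 5.50 at 3 months and 8.38, 7.96 and 8.39 at 12 months. *Ngly1*, the cytosolic enzyme that strips sugar chains from misfolded glycoproteins and also processes Nfe2l1, read 9.26, 10.21 and 9.06 at 3 months and 11.89, 11.85 and 11.70 at 12 months. Neither overlapped between the ages, and the differences were 2.44 ± 0.26 for *Uba6* (5.41-fold, adjusted p = 0.00682) and 2.31 ± 0.35 for *Ngly1* (4.94-fold, adjusted p = 0.0162). *Nfe2l1* itself differed by 0.02 (adjusted p = 0.967). *Pomp*, the maturation factor of the core, *Sem1*, a small lid subunit, and *Usp14*, a cap-bound deubiquitinase, differed by 0.28, 0.43 and -0.10, and only *Sem1* was higher on all 12-month arrays.

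**Figure D5:**
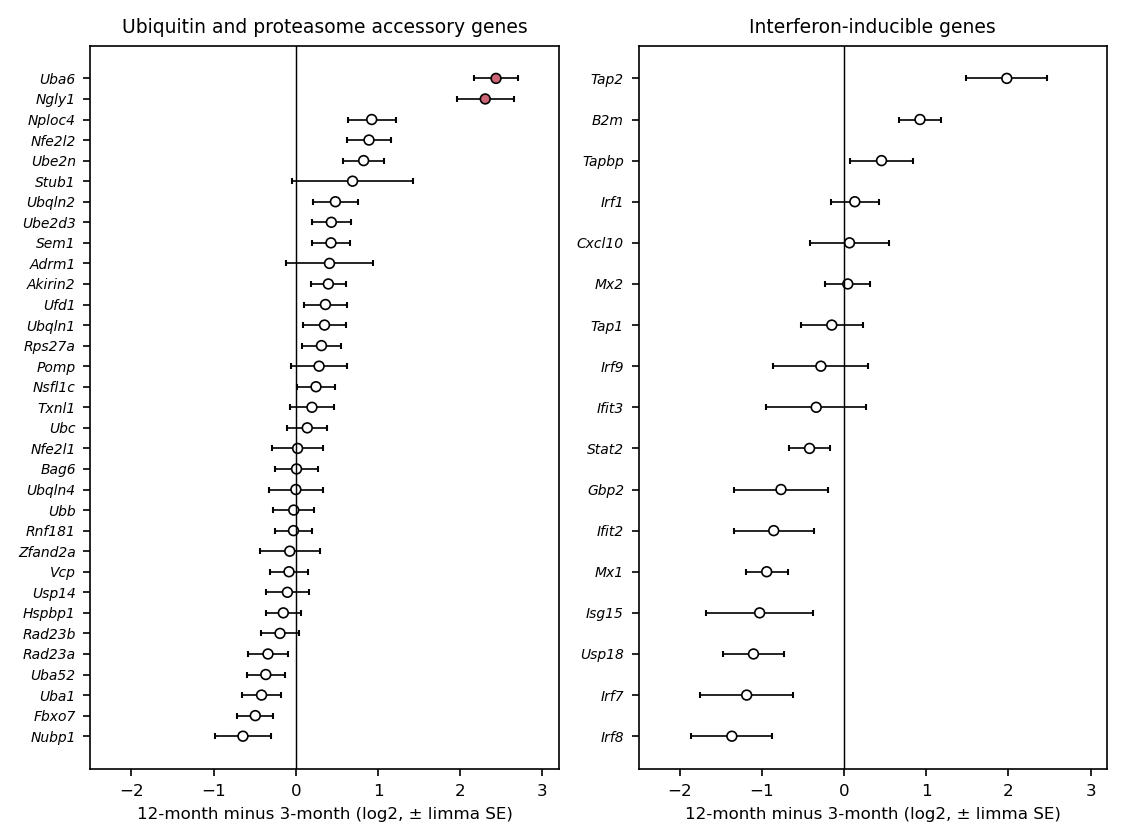
Age difference (horizontal axes, log2 units; bars, limma standard error) of the 33 accessory genes (left) and of the interferon-inducible genes (right) that were tested, 1 of the latter not being drawn. Filled points, *Uba6* and *Ngly1*, passed an adjusted p of 0.05, and none of the interferon-inducible genes did.

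Markers of some other cell types also differed with age. Each list is given as the log2 of its summed signal, in which the brightest genes weigh most. For the 5 stellate and mesenchymal markers this was 13.25 to 14.05 at 3 months and 14.63 to 15.99 at 12 months. Of these markers 1, *Pdgfrb*, passed the adjusted threshold. For the 5 endothelial markers it was 15.78 to 16.17 at 3 months and 14.94 to 15.70 at 12 months. Of these 5, 4 were lower on all 12-month arrays, *Cdh5* being below detection on each of them, and *Pecam1* was higher on all, by 1.23 log2 units. Of the 3 tested nerve and Schwann markers, *S100b* was lower on all 12-month arrays (-1.42), and *Sox10*, which had no value on the first 3-month array, was lower by the adjusted threshold (-2.08, adjusted p = 0.0336). The endocrine list, at 20.86 to 21.05 against 21.14 to 21.20, moved less but without overlap. The acinar list, at 20.38 to 20.89 against 20.55 to 21.04, overlapped. The 3 tested duct markers gave 13.03 to 14.05 against 12.46 to 14.34. The 3 red blood cell markers with a probe, of which 2 were tested, gave 16.19 to 16.83 against 15.32 to 16.69. The part of these cell types in the differences of *Psmb2*, *Psmd9* and *Psma8* was not tested.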

How the data were processed

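Islet RNA was measured on 1-colour arrays, 3 for each age, and the labels gave the age. Per the file headers, the authors' deposited scanner files hold spot intensity from Agilent Feature Extraction 11.0.1.1, background-subtracted and not normalised between arrays. A second deposited file, used as an alternative, gives the log2 values of the authors for 12145 probes, and its filter is not given in the sources used here. It holds all 45 members and follows the values computed here (correlation of at least 0.9996 on each array).

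From the intensities, log2 values were averaged over the spots of a probe and quantile normalised. Probes well above background on at least 3 of 6 arrays were kept (17944), and 17941 were tested with limma 3.58.1 in R 4.3.3 (lmFit and eBayes, two-sided), with Benjamini-Hochberg adjustment over all of them. Arrays have no read depth, so their number limits the precision, and the smallest two-sided p of an exact permutation test of 3 against 3 arrays is 0.1. Genes were named through RefSeq accessions matched to GRCr8. The array design uses build rn4, so coordinates are given only for RefSeq promoters. Each member had 1 probe. The scanner marked no spot of these probes as saturated.

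The members and gene lists were chosen with earlier results of these data known. Named with the value on each array were members past the adjusted threshold, the 5 largest rises and falls, the catalytic and inducible subunits, the activators and the inhibitor. *Psmc3*, *Psmd10* and other members singled out beside them were chosen after their values were seen. The limma step was also run on simulated data with known folds. Alternatives were normexp correction (offset 50), a 75th-percentile shift, the authors' table, other filters and variance models, array weights, replicate blocks, 4 arrays whose names share an ending, the methods' t-test plain and paired, an adjusted p under 0.1, the mean over probes, the list without *Psmc3ip*, and each array left out. A gene of the interferon list and one of a marker list are left unnamed here but are part of their counts.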

Additional observations from a re-analysis of the deposited data

How the results depend on the processing

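In the main fit, 3 members passed the adjusted threshold. The count was 4 with the authors' table, 5 with probes above background on all 6 arrays, 6 with no filter and 7 with normexp. It was 7 with the 75th-percentile shift and 8 with an intensity trend and robust variances. With array weights, whose estimation did not converge and gave the first 12-month array a weight of 8.56, the count was 13. It was 11 at an adjusted p under 0.1. It was 0 with the 4 arrays sharing a name ending, 0 with the methods' t-test and 0 with its paired form. The replicate numbers did not pair the arrays (correlations of deviations -0.01, -0.31 and -0.26, the third pair by elimination). With a replicate block the count was 0 for 3 pairs and 0 for the numbered pairs only. Leaving out each array in turn gave 0 to 6. Calls over all genes moved with the setting too. Of 11189 tested genes, 879 were called in the main fit, 1010 with the 75th-percentile shift and 1239 with normexp. Array weights called 3324 of them, an adjusted p under 0.1 called 2266 and the block of 3 pairs called 46. With the numbered pairs, the 4 arrays and the paired t-test 0 genes were called, and with an array left out 121 to 1141. Members higher at the fold threshold numbered 6, but 1 with the numbered pairs, 2 with the 4 arrays and 1 with the paired t-test. Members lower there numbered 2, but 7 with the 75th-percentile shift, 1 with detection on all 6 arrays, 1 with the paired t-test and 1 to 4 with an array left out. The accessory genes called numbered 2, but 4 with normexp, 4 with the trend, 5 with array weights, 5 at an adjusted p under 0.1, 1 with the methods' t-test, 0 with its paired form, 0 with the 4 arrays, 0 with either replicate block and 1 to 2 with an array left out. The members' median of -0.06 was -0.29 with the 75th-percentile shift, -0.016 with detection on all 6 arrays, 0.013 with array weights, 0.024 with the replicate block of numbered pairs, -0.016 without *Psmc3ip* and -0.068 to 0.019 with an array left out. *Psmb8* turned positive with array weights (0.41), numbered pairs (0.047) and the 4 arrays (0.11), and *Psmb6* turned negative with numbered pairs (-0.32). The causes were not tested. Slide and scan could not be fitted as blocks, since no scan held both ages.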
